A study of Homo sapiens with 4 samples.

Results

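The vacuolar ATPase (V-ATPase) is the proton pump that acidifies lysosomes, endosomes and phagosomes. The genes described here are the 10 listed subunit and accessory genes ATP6V0B, ATP6V0C, ATP6V0D1, ATP6V0D2, ATP6V1A, ATP6V1B2, ATP6V1F, ATP6V1H, ATP6AP1 and ATP6AP2. They were found by symbol, and each had 1 of the 58302 gene rows in the deposited table. The study sequenced RNA from BLaER1 cells in 2 stages, differentiated and undifferentiated, with 2 libraries each. BLaER1 is a single human line derived from a B cell leukaemia. Cells of both stages carry C/EBPα, a myeloid transcription factor, fused to the part of the oestrogen receptor that binds hormone, so that oestradiol can switch it on. Differentiation had taken 5 to 6 days and used 100 nM oestradiol together with the cytokines M-CSF and IL-3, with 10 ng/ml written once, before IL-3. The undifferentiated cells are labelled as such, with no treatment named for them. Whether replicate libraries were grown as separate cultures is not stated, so p-values here reflect the spread among these 4 libraries alone, which may be technical.

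The pump is a rotary machine. Its cytosolic V1 sector splits ATP, and its membrane-embedded V0 sector carries protons through a ring of proteolipid subunits against the a subunit, while central and peripheral stalks connect the sectors. Several subunits are encoded by alternative genes used in different tissues, and macrophages depend on the pump to digest what they engulf and to activate lysosomal proteases.

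Values are TPM, a relative transcript abundance. They are corrected for gene length, so levels can be compared between genes, but they keep no sequencing depth. The depth of each library is therefore unknown. The labelled stages matched their marker genes: 10 of 10 macrophage markers were called higher and 10 of 10 B cell markers lower in differentiated cells. Calls are defined below, and over all tested genes 18.6% were called higher and 22.8% lower. Of the macrophage and B cell markers, 9 and 5 were below 1 TPM in both libraries of the opposite stage. These entered the test through the stage where they were high. Among the rest, 1 of 1 macrophage marker, CSF1R, was called higher and 5 of 5 B cell markers lower. The summed level of the macrophage markers was 821 and 910 TPM in differentiated and 8.11 and 6.22 TPM in undifferentiated libraries, and that of the B cell markers averaged 12.4 ± 0.580 against 395 ± 144 TPM (SD, n = 2 each). Markers of T cells, neutrophil granules and erythroid cells summed to at most 0.83, 0.47 and 0.47 TPM in any library. RN7SK, a structural RNA, took 20.9% and 23.5% of the summed TPM in differentiated and 35.5% and 41.7% in undifferentiated libraries, while protein-coding genes took 12.2% and 13.5% against 23.0% and 15.6%. TPM of every other gene depend on such shares, and other scalings are given where they matter.

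Short stretches of the promoters are shown first, because lysosomal genes are known to share the CLEAR element, a palindrome built around an E-box, which MiT/TFE transcription factors bind. The window searched runs from 250 bases before to 50 bases after each start in RefSeq's promoters (GRCh38.p14). It was available for 6 of the 10 genes, in 7 windows, and for 18 genes, in 26 windows, when all V-ATPase subunits are counted. The E-box core CACGTG, which reads the same on both strands, was found for 2 of the 6 genes, ATP6V0B and ATP6V0D1. Over the wider set it was found for 4 of 18 genes, adding ATP6V0E2 and ATP6V1G1. It occurs for 8.77% of the 27305 genes with a promoter window, and in 5 of the 26 V-ATPase windows against 7.26% of all 35116 windows. The 5 include overlapping windows of ATP6V0E2 that hold the same site. In lists described below, the core was found for 5 of 14 Ragulator and Rag genes and 5 of 12 ion transporters with a window. It was also found for 3 of 11 mitochondrial ATP synthase genes and 0 of 9 assembly factors. The longer TCACGTG, or CACGTGA on the other strand, was found for 5, 5, 1 and 0 genes in those lists. It was present for 4.49% of all genes and for the same 4 V-ATPase genes. These stretches lie upstream of the start, with 20 bases on either side of the match and the core in capitals, 5′ to 3′ on the gene's strand.
ATP6V0B (chr1:43974883-43974946, plus strand): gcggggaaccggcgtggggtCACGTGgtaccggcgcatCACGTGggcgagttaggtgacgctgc
ATP6V0D1 (chr16:67481191-67481236, minus strand): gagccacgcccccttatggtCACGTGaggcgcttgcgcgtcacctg
ATP6V0E2 (chr7:149872876-149872921, plus strand): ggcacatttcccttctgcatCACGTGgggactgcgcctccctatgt
ATP6V1G1 (chr9:114587691-114587736, plus strand): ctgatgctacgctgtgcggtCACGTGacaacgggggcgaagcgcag

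The cores begin 57 and 39 bases before the start in ATP6V0B, 59 in ATP6V0D1 and 58 in ATP6V1G1. Of the 4 genes, ATP6V1G1 alone holds the full 10-base palindrome of the CLEAR element, which contains the core and occurs for 0.421% of all genes. The palindrome also occurs for 1 of the 14 Ragulator and Rag genes and 2 of the 12 ion transporters. It occurs for 0 of the 11 ATP synthase genes and 0 of the 9 assembly factors. ATP6V0C, ATP6V1F, ATP6AP1 and ATP6AP2 hold no CACGTG in this window, which says only that these letters are not there. The 4 genes differed in their RNA: ATP6V0B and ATP6V0D1 rose, ATP6V0E2 stayed under 1 TPM in every library, and ATP6V1G1 was not called, with lower values in the differentiated libraries (values below).

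Differentiated cells had more V-ATPase RNA, and the increase was larger in the membrane sector than in the cytosolic sector. Together the 10 genes amounted to 128 and 146 TPM in differentiated libraries and 59.3 and 29.7 TPM in undifferentiated libraries, means of 137 ± 12.9 and 44.5 ± 20.9 TPM (SD, n = 2 each). Both differentiated libraries lay above both undifferentiated libraries. An exact two-sided permutation test gave p = 0.333, the smallest value that 2 against 2 libraries allow. In bulk RNA, a change in the share of cells that express a gene and a change in RNA per cell cannot be told apart.

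Single genes were tested with limma on log2(TPM + 1) among the 10180 genes that reached 1 TPM in 2 or more libraries, and a gene is referred to as called where its p, adjusted over all of them by the Benjamini-Hochberg method, was below 0.05. Of the 10 genes, 9 passed that filter, and each of these 9 had more than 1 TPM in all 4 libraries. ATP6V0D2 did not pass. Of the 9 tested, 6 were called higher, 0 lower and 3 were not called. Over all tested genes 41.4% were called, 18.6% higher and 22.8% lower. The median log2 difference was 1.31 over the 9 genes and -0.14 over all tested genes. For 8 of the 9 genes both differentiated libraries lay above both undifferentiated libraries, which held for 31% of all tested genes, while 39% lay entirely below.

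**Figure D1:**
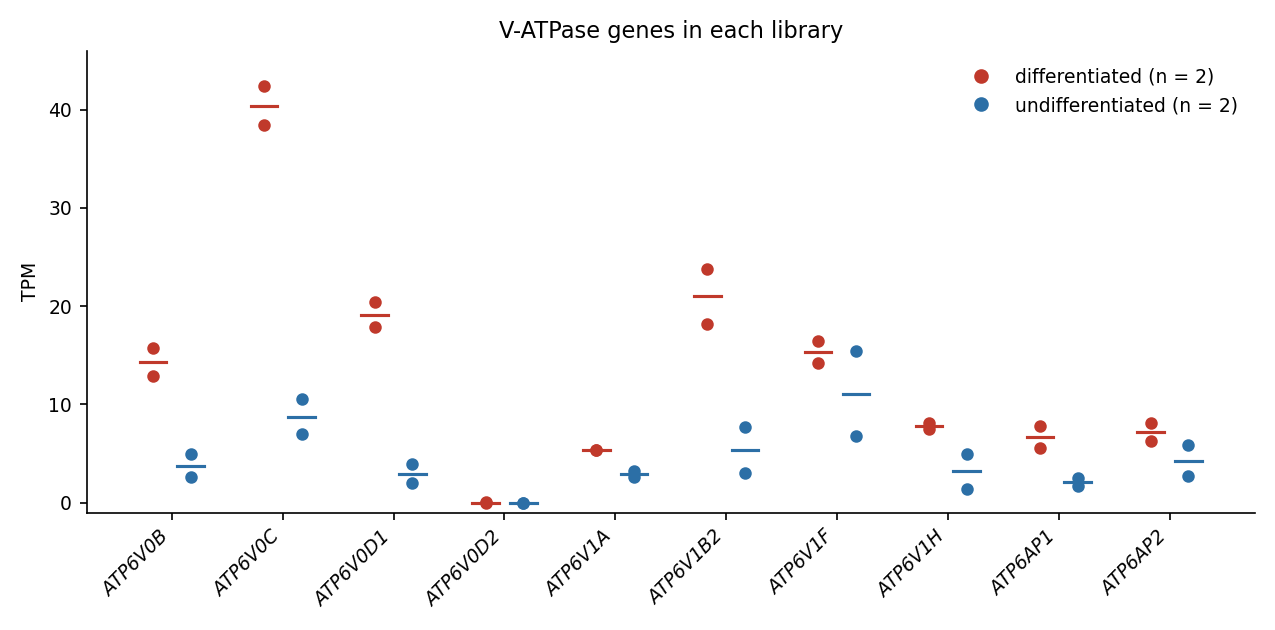
TPM of the 10 V-ATPase genes in each library, with differentiated libraries in red on the left and undifferentiated libraries in blue on the right of each gene, and short lines at the means (n = 2 each). ATP6V0C reaches 38.4 and 42.4 TPM in differentiated libraries, ATP6V1F overlaps between stages, and ATP6V0D2 lies at or near 0 throughout.

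The proteolipid ring genes rose. ATP6V0C (ENSG00000185883) encodes the c subunit, the repeated proteolipid of the rotor ring. It had 38.4 and 42.4 TPM in differentiated libraries, against 10.5 and 6.97 TPM in undifferentiated libraries. The stages did not overlap, and ATP6V0C was the most abundant V-ATPase gene of the differentiated cells, at 40.4 ± 2.85 TPM. The ratio of means was 4.62, and the log2 difference 2.11 ± 0.38 (SE, adjusted p = 0.000621). Processed pseudogenes of ATP6V0C could share its reads, but the rows ATP6V0CP1, ATP6V0CP2 and ATP6V0CP3 held at most 0.12 TPM. ATP6V0B (ENSG00000117410), which encodes the related c″ proteolipid of the same ring and carries the paired cores shown above, had 12.9 and 15.7 TPM in differentiated and 4.97 and 2.60 TPM in undifferentiated libraries. Its libraries did not overlap either, with a ratio of means of 3.78 and a log2 difference of 1.72 ± 0.40 (adjusted p = 0.00407).

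The d subunit joins the ring to the central stalk and has a widely expressed gene, ATP6V0D1, and a tissue-restricted gene, ATP6V0D2, known from osteoclasts, kidney and some macrophages. ATP6V0D1 (ENSG00000159720) had 17.9 and 20.4 TPM in differentiated libraries, against 3.92 and 2.02 TPM in undifferentiated libraries. Its log2 difference of 2.38 ± 0.40 was the largest of the 10 genes (ratio of means 6.44, adjusted p = 0.000378). ATP6V0D2 (ENSG00000147614) had listed values of 0 and 0.03 TPM in differentiated libraries and was listed at 0 in each undifferentiated library, so no fold is given. It made up 0% and 0.147% of the d subunit TPM in the differentiated libraries. Of 9 osteoclast markers, 6 were below the filter and DCSTAMP, MMP9 and OSCAR passed it, and the 9 summed to 8.33 and 9.86 TPM in differentiated and 0.81 and 0.84 TPM in undifferentiated libraries.

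The V1 genes were less uniform. The catalytic head alternates A subunits, which split ATP, with B subunits, which bind nucleotide without splitting it. ATP6V1B2 (ENSG00000147416), the widely expressed B subunit gene, had 18.2 and 23.8 TPM in differentiated libraries, against 7.74 and 3.03 TPM in undifferentiated libraries. The stages did not overlap, and the gene rose by 1.88 ± 0.44 on the log2 scale (ratio of means 3.90, adjusted p = 0.00376). ATP6V1A (ENSG00000114573), the A subunit gene, had 5.35 and 5.41 TPM in differentiated and 3.27 and 2.63 TPM in undifferentiated libraries. These values did not overlap, yet the log2 difference of 0.70 ± 0.38 was not called (adjusted p = 0.163). The A and B proteins are present in equal numbers in the pump, whereas ATP6V1B2 RNA exceeded ATP6V1A RNA in 4 of 4 libraries.

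ATP6V1H (ENSG00000047249), whose product couples ATP splitting to proton transport, had 7.50 and 8.14 TPM in differentiated libraries, against 5.01 and 1.38 TPM in undifferentiated libraries. The undifferentiated libraries differed widely from each other, and the log2 difference of 1.22 ± 0.46 was called only narrowly (ratio of means 2.45, adjusted p = 0.0487). This call was lost with a pseudocount of 0.1 (adjusted p = 0.0552), with eBayes without a trend (0.0537), with no low-value filter (0.282), with the replicate number as a block (0.0521) and without undifferentiated replicate 2 (0.0991). ATP6V1F (ENSG00000128524), a central stalk subunit, had 14.2 and 16.5 TPM in differentiated and 15.4 and 6.77 TPM in undifferentiated libraries. Its stages overlapped, and it was not called (log2 difference 0.53 ± 0.43, adjusted p = 0.348). Without undifferentiated replicate 2 its log2 difference was -0.01, and without undifferentiated replicate 1 it was 1.07 and called (adjusted p = 0.0201).

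The accessory proteins are bound to the V0 sector. ATP6AP1 (ENSG00000071553), also known as Ac45, acts in V0 assembly and had 5.59 and 7.77 TPM in differentiated libraries, against 2.52 and 1.66 TPM in undifferentiated libraries. It rose by 1.31 ± 0.39 on the log2 scale (ratio of means 3.20, adjusted p = 0.0169). ATP6AP2 (ENSG00000182220), also known as the prorenin receptor, had 8.14 and 6.28 TPM in differentiated and 5.89 and 2.68 TPM in undifferentiated libraries. Its stages lay side by side without overlap, and the log2 difference of 0.70 ± 0.42 was not called (adjusted p = 0.207).

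The remaining subunit genes were taken from a list. From that list of 16 further V-ATPase genes, 9 passed the filter, of which 4 were called higher, 0 lower and 5 were not called. The shares over all tested genes were 18.6% higher and 22.8% lower. ATP6V0A1, which encodes a form of the a subunit, had 9.42 and 9.08 TPM in differentiated libraries, against 0.15 and 0.12 TPM in undifferentiated libraries (log2 difference 3.17 ± 0.35, adjusted p = 1.88e-05). It passed the filter through the differentiated libraries alone. TCIRG1, the a subunit form used by osteoclasts and lysosomes, was at 12.6 ± 1.96 TPM in differentiated cells, against 3.46 ± 0.219 TPM in undifferentiated cells (log2 difference 1.61, adjusted p = 0.00416), and its exons overlap those of another gene on the same strand, AP002807.1. ATP6V0E1, the small e subunit, averaged 22.6 ± 1.94 TPM in differentiated cells, against 5.62 ± 2.16 TPM in undifferentiated cells (log2 difference 1.87, adjusted p = 0.00191). RNASEK, a small V0-associated protein, averaged 36.1 ± 2.32 TPM in differentiated cells, against 10.3 ± 1.97 TPM in undifferentiated cells (log2 difference 1.72, adjusted p = 0.00221). Its exons overlap those of the readthrough gene RNASEK-C17orf49 and of C17orf49 on the same strand. C17orf49 had 6.71 and 10.3 TPM in differentiated and 4.43 and 2.97 TPM in undifferentiated libraries. ATP6V0A2, a Golgi and endosomal a subunit form, had 2.59 and 1.72 TPM in differentiated and 4.51 and 1.22 TPM in undifferentiated libraries and was not called (adjusted p = 0.798).

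Of the further V1 subunits, 4 passed the filter and 0 were called, although ATP6V1C1 lay close to the threshold. ATP6V1C1, which bridges the peripheral stalks, averaged 11.2 ± 0.156 TPM in differentiated cells, against 5.16 ± 2.31 TPM in undifferentiated cells (log2 difference 1.04, adjusted p = 0.0561). Its libraries did not overlap, and it was called higher under median-of-ratios scaling (adjusted p = 0.00331), quantile normalization (0.00358), protein-coding rescaling (0.00134) and eBayes without a trend (0.0468). It was also called with the GC trend removed (0.00318), with the length trend removed (0.0357) and without undifferentiated replicate 1 (0.00793). ATP6V1E1, a peripheral stalk subunit, averaged 9.58 ± 0.198 TPM in differentiated cells, against 7.82 ± 2.96 TPM in undifferentiated cells (adjusted p = 0.575). Its partner ATP6V1G1 had 13.0 and 13.2 TPM in differentiated libraries, against 24.9 and 22.2 TPM in undifferentiated libraries, where it was the most abundant V-ATPase gene. The ATP6V1G1 libraries did not overlap, and the log2 difference of -0.80 ± 0.37 was not called (adjusted p = 0.0986), although it was called lower without undifferentiated replicate 2 (adjusted p = 0.0249). ATP6V1D, of the central stalk, had 2.18 and 4.73 TPM in differentiated and 6.66 and 4.35 TPM in undifferentiated libraries (log2 difference -0.58, adjusted p = 0.295). Its exons overlap those of EIF2S1 on the opposite strand. EIF2S1 had 5.85 and 5.26 TPM in differentiated and 35.7 and 24.9 TPM in undifferentiated libraries. Whether EIF2S1 reads bear on the ATP6V1D values was not tested. A further 7 genes of the list, among them the kidney forms ATP6V0A4 and ATP6V1B1 and the testis and brain forms ATP6V1E2 and ATP6V1G2, were below 1 TPM in every library.

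**Figure D2:**
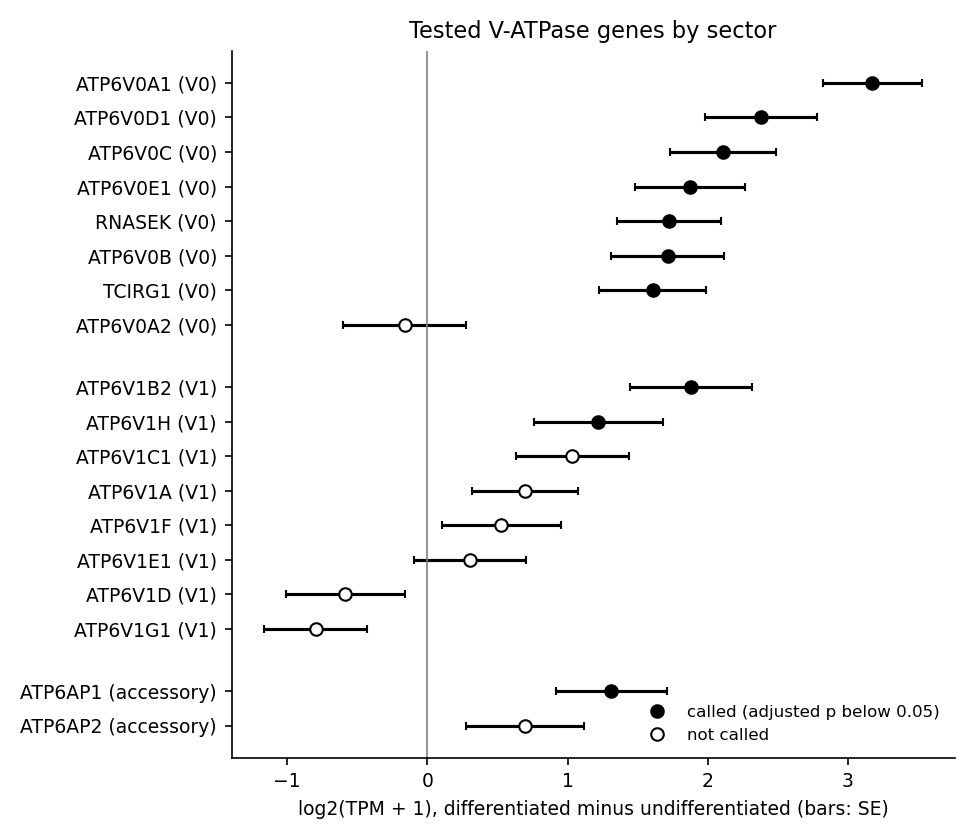
Difference in log2(TPM + 1), differentiated minus undifferentiated, with its standard error, for the 18 tested V-ATPase genes grouped into V0, V1 and accessory proteins; filled points are called. In V0, 7 of 8 genes are called higher, against 2 of 8 in V1 and 18.6% of all tested genes. ATP6V0A2 of V0 and ATP6V1D and ATP6V1G1 of V1 lie below 0.

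Counted by sector, 7 of 8 tested V0 genes were called higher, with a median log2 difference of 1.80, and 2 of 8 tested V1 genes, with a median of 0.61. Among all tested genes 18.6% were called higher and 22.8% lower, so the V1 count lay near the share over all genes. Without ATP6V0A1, which passed the filter through the differentiated libraries alone, 6 of 7 V0 genes were called, with a median of 1.72. A ratio within a library does not depend on how that library was scaled as a whole. The V0 genes made up 64.9% and 63.5% of the summed V0 and V1 TPM in differentiated libraries, against 36.8% and 37.3% in undifferentiated libraries, means of 64.2 ± 0.996% and 37.0 ± 0.383% (SD, n = 2 each). Expressed as a ratio, V0 RNA was 1.85 and 1.74 times V1 RNA in differentiated and 0.582 and 0.595 times V1 RNA in undifferentiated libraries. The difference of 27.2 percentage points was much larger than the spread within a stage, and the exact two-sided permutation p was again 0.333. Summed V0 RNA averaged 157 ± 7.36 TPM in differentiated cells, against 38.6 ± 11.8 TPM in undifferentiated cells. Summed V1 RNA averaged 87.6 ± 7.89 TPM in differentiated cells, against 65.8 ± 21.1 TPM in undifferentiated cells. Among single genes, ATP6V0C supplied 16.4% and 16.6% of the V0 and V1 sum in differentiated and 8.26% and 8.59% in undifferentiated libraries, whereas ATP6V1G1 supplied 5.56% and 5.16% against 19.5% and 27.4%. With ATP6V1G1 left out, the V0 share was 68.8% and 67.0% in differentiated and 45.7% and 51.4% in undifferentiated libraries.

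GC content moved with this split. The tested V0 transcripts had a median GC content of 55.5%, against 45.4% for the tested V1 transcripts and 47.8% over all tested protein-coding genes. The median log2 difference over all tested protein-coding genes was -0.48 in the lowest of 4 equal bins of GC content and 0.24 in the highest. How far GC content bears on the sector split was not tested beyond removing a trend. With a GC trend removed from each library, the V0 share was 62.3% and 59.8% in differentiated and 42.3% and 38.8% in undifferentiated libraries. The difference became 20.5 percentage points, and 7 of 8 V0 genes and 4 of 8 V1 genes were then called higher. Of the 9278 protein-coding genes in that fit, 17.7% were called higher and 25.1% lower.

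**Figure D3:**
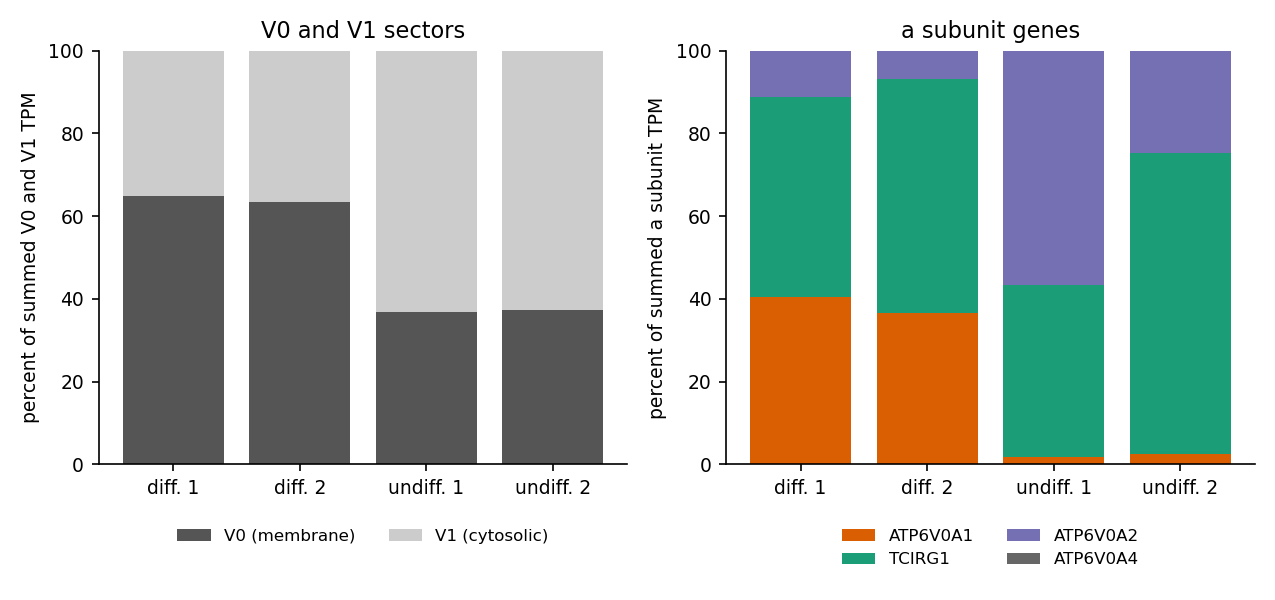
Left, share of the V0 (dark) and V1 (light) sectors in their summed TPM in each library; right, share of the 4 a subunit genes in their own sum. V0 takes 64.9% and 63.5% in differentiated and 36.8% and 37.3% in undifferentiated libraries, and ATP6V0A1 takes 40.5% and 36.6% against 1.88% and 2.42%.

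The a subunit decides in which membrane the pump resides, and its genes were used in different proportions. Summed a subunit RNA was 23.3 and 24.8 TPM in differentiated and 7.96 and 4.95 TPM in undifferentiated libraries. ATP6V0A1 made up 40.5% and 36.6% of it in differentiated libraries, against 1.88% and 2.42% in undifferentiated libraries, a share chosen for display after its values were seen (exact permutation p = 0.333). ATP6V0A2 made up 11.1% and 6.93% against 56.7% and 24.6%. The TCIRG1 share overlapped between stages, at 48.3% and 56.5% in differentiated and 41.5% and 72.9% in undifferentiated libraries (exact permutation p = 1).

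In order of level, ATP6V0C led among the V-ATPase genes of the differentiated cells, followed by RNASEK, ATP6V0E1, ATP6V1B2 and ATP6V0D1. ATP6V0C and RNASEK were each separate from the next gene, whereas ATP6V0E1 overlapped with ATP6V1B2, and ATP6V1B2 with ATP6V0D1. Further down, ATP6V1F overlapped with ATP6V0B, ATP6V1H with ATP6AP2 and ATP6AP2 with ATP6AP1, and ATP6V1A at 5.38 ± 0.0424 TPM was the lowest of the 9 tested members. In undifferentiated cells, ATP6V1G1 led and was separate from ATP6V1F at 11.1 ± 6.13 TPM. From ATP6V1F down to ATP6AP1 each gene overlapped with its neighbour, so their order is not resolved there.

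Of the scalings, none turned the direction of a tested member, but they changed how many were called. Median-of-ratios scaling called 8 of the 9 genes higher, against 27.2% of all tested genes higher and 28.1% lower. Quantile normalization called 9 of 9 higher, against 25.4% of all genes higher and 29.4% lower. Rescaling over protein-coding genes also called 9 of 9 higher, against 34.3% higher and 18% lower of the 11945 protein-coding genes tested there. The V1 genes changed most between these settings, with 4 of 8, 5 of 8 and 6 of 10 called higher, while 7 V0 genes were called in each. Over the 9 genes the median log2 difference was 1.42, 1.37 and 2.15 under these scalings, and that of all tested genes was -0.03, -0.08 and 0.37. The 10 genes took 0.105% and 0.109% of the protein-coding TPM in differentiated libraries and 0.0258% and 0.0191% in undifferentiated libraries. Left out in turn, either differentiated library ended all 6 calls (adjusted p from 0.0911 for ATP6V0C without replicate 1 to 0.455 for ATP6V1H without replicate 2). In those fits 1293 and 1271 of the 10180 genes were called, against 4216 with all libraries. ATP6V0A1, which passed the filter through the differentiated libraries alone, had log2 differences from 3.15 to 3.20 with 1 library left out. With no low-value filter, which put 29186 genes in the test, ATP6V0C and ATP6V0D1 were called, 2 of the 10. In that fit 687 of all genes were called higher. The median log2 difference over the 9 genes was 1.89 without undifferentiated replicate 1 and 1.11 without undifferentiated replicate 2. Over all tested genes it was 0.15 and -0.43 in the same fits.

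**Figure D4:**
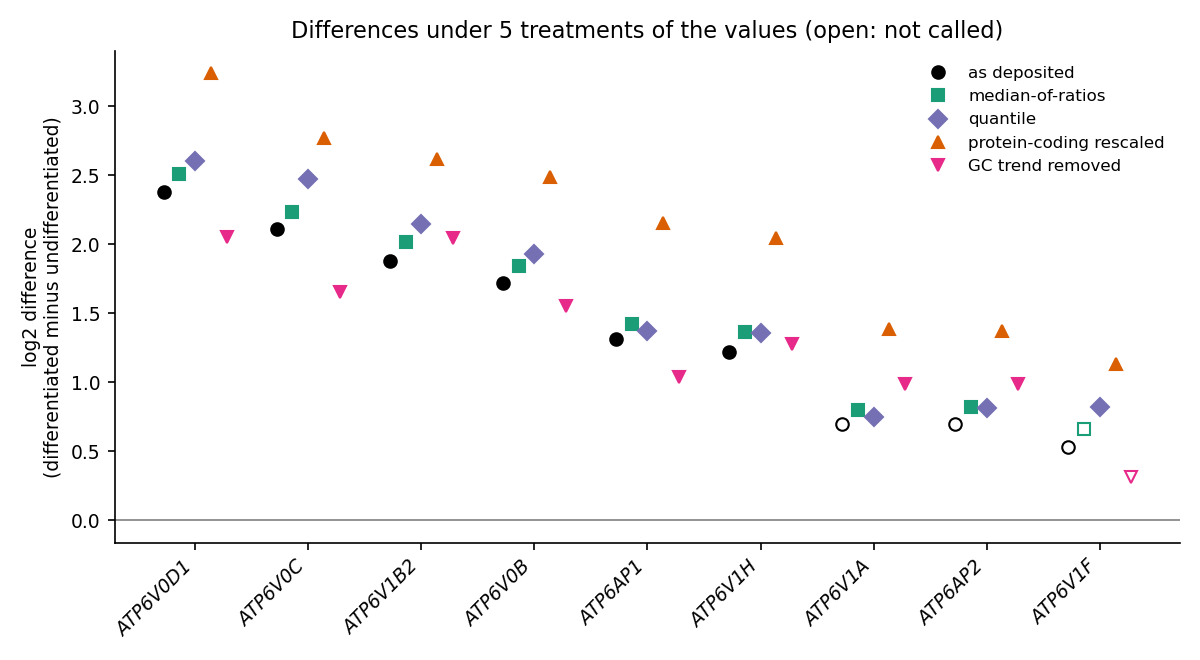
Log2 difference, differentiated minus undifferentiated, of the 9 tested genes as deposited, under 3 other scalings and with the GC trend removed; open symbols are not called. All points lie above 0, from 0.32 for ATP6V1F with the GC trend removed to 3.24 for ATP6V0D1 over protein-coding genes.

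Genes that work with the pump were examined next. Of 12 assembly and regulatory factors, 10 were tested, and 1 was called higher, 1 lower and 8 not, with a median log2 difference of 0.34. Over all tested genes 41.4% were called, and 18.6% were called higher. DMXL2, a RAVE-type factor that helps V1 join V0, had 7.03 and 8.34 TPM in differentiated libraries, against 1.39 and 0.73 TPM in undifferentiated libraries (log2 difference 2.09 ± 0.39, adjusted p = 0.000757). TMEM199, an assembly factor of the pump, was lower at 6.65 and 8.13 TPM in differentiated libraries against 15.9 and 16.5 TPM in undifferentiated libraries (log2 difference -1.04 ± 0.37, adjusted p = 0.039). The TMEM199 call was lost with the replicate block (adjusted p = 0.11), over protein-coding genes (adjusted p = 0.12), with no low-value filter (adjusted p = 0.0984) and without differentiated replicate 1 or 2 (adjusted p = 0.404 and 0.296). For DMXL2, leaving out the same libraries gave an adjusted p of 0.0821 and 0.0953.

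The Ragulator and Rag GTPases dock on the pump and recruit the growth kinase complex mTORC1 to lysosomes. Of 17 genes of this system, 16 were tested, and 2 were called higher, 1 lower and 13 not, with a median log2 difference of 0.02. By comparison, 18.6% of all tested genes were called higher and 22.8% lower. LAMTOR1, the membrane anchor of Ragulator, was at 13.0 ± 2.55 TPM in differentiated cells, against 4.10 ± 0.643 TPM in undifferentiated cells (log2 difference 1.46, adjusted p = 0.00827). LAMTOR5 was lower, at 7.98 ± 0.481 TPM in differentiated cells, against 35.4 ± 15.6 TPM in undifferentiated cells (log2 difference -1.95, adjusted p = 0.00181). FLCN, which acts on the Rag GTPases, averaged 2.10 ± 0.714 TPM in differentiated cells, against 0.775 ± 0.0778 TPM in undifferentiated cells, and its call (adjusted p = 0.0451) was lost without any single library (adjusted p from 0.065 to 0.196), with a pseudocount of 0.1 (0.0638), with the replicate block (0.0647), with eBayes without a trend (0.0883), with no low-value filter (0.213) and with the GC trend removed (0.202). FLCN passed the filter through the differentiated libraries alone. For LAMTOR1 and LAMTOR5 the calls were lost without differentiated replicate 1 (adjusted p = 0.185 and 0.141) or replicate 2 (adjusted p = 0.303 and 0.123).

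Other ion transporters of endosomes and lysosomes included genes that rose. Of 14 genes, 9 passed the filter, and 6 were called higher, 0 lower and 3 not, with a median log2 difference of 1.06. Of all tested genes 18.6% were called higher and 22.8% lower. The cation channel gene TPCN1 had 7.96 and 6.77 TPM in differentiated libraries, against 0.01 and 0 TPM in undifferentiated libraries (log2 difference 3.05, adjusted p = 1.45e-05). SLC9A9, an endosomal sodium-proton exchanger, averaged 8.64 ± 2.16 TPM in differentiated cells, against 0.345 ± 0.106 TPM in undifferentiated cells (log2 difference 2.83, adjusted p = 6.17e-05). TPCN1, SLC9A9 and MCOLN1, a lysosomal cation channel gene, passed the filter through the differentiated libraries alone, and of the other 6 tested transporters 3 were called higher. The called genes also included CLCN7 and OSTM1, the chloride-proton exchanger of lysosomes and its partner, with adjusted p-values of 0.046 and 0.0449. CLCN7 averaged 6.48 ± 0.0283 TPM in differentiated cells, against 2.70 ± 0.127 TPM in undifferentiated cells, and its call was lost with a pseudocount of 0.1 (adjusted p = 0.0547), with the replicate block (0.114), with the GC trend removed (0.313) and with no low-value filter (0.0924). OSTM1 averaged 6.25 ± 0.552 TPM in differentiated cells, against 2.53 ± 0.834 TPM in undifferentiated cells, and its call was lost with a pseudocount of 0.1 (adjusted p = 0.0526), with the replicate block (0.0967) and with no low-value filter (0.132). Without differentiated replicate 1 or 2, neither CLCN7 nor OSTM1 was called. Their log2 differences were then 1.01 and 1.02 for CLCN7 and 1.13 and 0.98 for OSTM1.

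The mitochondrial ATP synthase, a rotary machine related to the V-ATPase, served as a comparison. All 15 of its listed subunit genes were tested, and 0 were called higher, 9 lower and 6 not, with a median log2 difference of -1.16. The shares called over all tested genes were 22.8% lower and 18.6% higher. Under median-of-ratios scaling, quantile normalization and protein-coding rescaling the median was -1.04, -0.81 and -0.66, with 10, 9 and 8 genes lower and 1 higher in each. In the same settings 28.1%, 29.4% and 18% of all tested genes were lower and 27.2%, 25.4% and 34.3% higher. With 1 library left out, the median log2 difference was between -1.40 and -1.06. The median over all tested genes was between -0.43 and 0.15 in the same fits. ATP5ME had 21.5 and 22.0 TPM in differentiated libraries, against 271 and 192 TPM in undifferentiated libraries (log2 difference -3.33, adjusted p = 1.44e-05). ATP5PF had 22.4 and 28.0 TPM in differentiated libraries, against 278 and 212 TPM in undifferentiated libraries (log2 difference -3.23, adjusted p = 1.75e-05). The summed V-ATPase RNA of all 26 genes was 0.963 and 0.968 times the summed ATP synthase RNA in differentiated libraries, and 0.111 and 0.0922 times in undifferentiated libraries. The ATP synthase sum averaged 1076 TPM in undifferentiated libraries, of which ATP5PF supplied 245 TPM and ATP5ME 232 TPM. As a ratio of sums, it is weighted to abundant genes and need not hold for each subunit. Of the 15 genes, 6 were not called. Both transcripts named are short, and with a length trend removed their log2 differences were -2.13 for ATP5ME and -3.03 for ATP5PF.

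**Figure D5:**
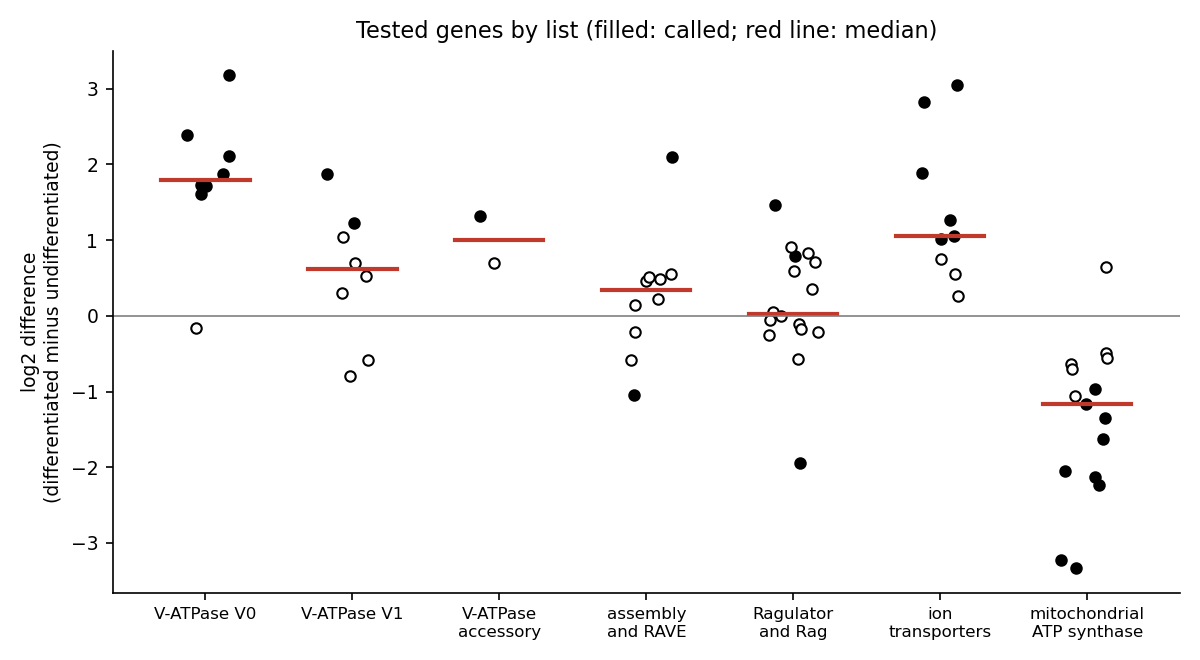
Log2 difference, differentiated minus undifferentiated, of each tested gene in the V0, V1 and accessory groups of the V-ATPase and in 4 further lists, with medians as red lines and called genes filled. The medians run from 1.80 in V0 to -1.16 in the mitochondrial ATP synthase.

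The tested genes outside the complex whose profile over the 4 libraries was closest to the median profile of the 9 genes included AC004232.1, WWP1, CARD9 and GNAQ. Likeness was the Euclidean distance between log2(TPM + 1) values centred on each gene's mean, and it ran from 0.114 for AC004232.1 to 0.135 for GNAQ. WWP1, a ubiquitin ligase gene, had 16.3 and 19.3 TPM in differentiated and 8.38 and 4.06 TPM in undifferentiated libraries. CARD9, an adaptor gene of innate immune signalling, had 3.41 and 4.31 TPM in differentiated libraries, against 1.19 and 0.34 TPM in undifferentiated libraries. The likeness rests on 4 libraries in 2 stages and is a description only.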

How the data were processed

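Total RNA from BLaER1 cells had been purified and made into 4 stranded sequencing libraries, per the labels' protocols. The authors deposited TPM in 1 table with 1 column per library. Trimmomatic, STAR and RSEM were used, per the submitters' processing notes. Their versions and settings, the genome build, the annotation and the strand setting: not given in the sources used here. RSEM distributes reads that match several genes.

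The 10 genes and the gene lists were chosen with earlier results of these data known. The labelled stage set the groups. Genes that reached 1 TPM in 2 or more libraries were tested on log2(TPM + 1), which understates the change of low genes, with limma 3.58.1 in R 4.3.3 (moderated variances with a trend, two-sided, Benjamini-Hochberg adjusted). The fit had 2 residual and 10.9 prior degrees of freedom. Sums and shares were compared by exact permutation over libraries in scipy 1.17.1. Gene types, GC content and transcript lengths came from GENCODE release 29, in which 58039 of 58302 IDs were found. Of the tested protein-coding genes 99.8% had a GC value. Genes named are all V-ATPase genes of the list that passed the filter, the 2 called members of each further list with the largest rise and the 2 with the largest fall (fewer where fewer were called), and the 5 of nearest profile, of which 1 is not reported here. The forms ATP6V0A4, ATP6V0E2, ATP6V1B1, ATP6V1E2 and ATP6V1G2, the genes CLCN7 and OSTM1 and the marker genes were added. The procedure was also run on simulated data. These had no difference in library composition between the stages, unlike the deposited libraries, so they do not test the effect of such a difference. Alternatives were another pseudocount, filters, scalings, a variance model, a replicate block and each library left out. Removal of a GC or length trend, and leaving RNASEK or ATP6V1G1 out of the sector sum, were added after seeing the data.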

Additional observations from a re-analysis of the deposited data

How the results depend on the processing

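The number of members called, 6 of 9 as deposited, was 5 with a pseudocount of 0.1, with eBayes without a trend and with the replicate block, and 6 with a filter of 5 TPM. In the same order, 1810, 1766 and 1730 of all 10180 genes and 1016 of 4511 genes were called higher, against 1890 as deposited. Median-of-ratios scaling gave 8, quantile normalization and protein-coding rescaling 9 each, removal of a GC trend 8 and removal of a length trend 7. Of all genes tested there, 2769 and 2585 of 10180, 4102 of 11945, and 1644 and 1753 of 9278 were called higher, in that order. Without a filter on low values 2 of 10 members, 3 V-ATPase genes and 1260 of all 29186 genes were called, and the filter of 5 TPM left 2436 calls among 4511 genes. With 1 library left out, 0 to 9 members, 1 to 14 V-ATPase genes and 1271 to 5652 of all genes were called, where the lone library of a stage is assumed to vary like the others. Replicate numbers gave no pairing (the correlation of deviations between same-numbered libraries was -0.0237 across genes). The replicate block called 3766 genes against 4216, and of the 18 tested V-ATPase genes it changed the call of ATP6V1H and no other. Under the block 1 of 10 assembly factors, 2 of 16 Ragulator and Rag genes, 4 of 9 ion transporters and 7 of 15 ATP synthase genes were called. The log2 difference of ATP6V0A2 was 0.38 over protein-coding genes and 0.072 with the GC trend removed, and -0.82 to 0.49 with 1 library left out. Left out in turn, libraries gave -0.012 to 1.07 for ATP6V1F and -0.044 to 0.65 for ATP6V1E1. The difference in the V0 share was 25.9 percentage points without ATP6V0C, 28.0 without RNASEK, 19.4 without ATP6V1G1, 20.5 with the GC trend removed and 26.5 to 27.9 with 1 library left out. The difference in the TCIRG1 share was -4.79 percentage points and -20.5 to 10.9 with 1 library left out, and that in the ATP6V0D2 share 0.0735 and 0 to 0.147. The difference in the members' summed level was 92.8 TPM, 78.0 to 108 TPM with 1 library left out, 102 after median-of-ratios scaling and 844 after protein-coding rescaling, which puts all values on a larger scale. The ratio of means was 3.08 as deposited, 3.57 after median-of-ratios scaling and 4.77 after protein-coding rescaling. The causes of these changes were not tested. Because TPM keep no depth, counting errors and detection limits are unknown, and zeros are given as listed.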
